A study of Mus musculus with 12 samples.

Results

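The caveolins are the 3 genes Cav1, Cav2 and Cav3, taken by symbol from a table of 47593 genes measured by RNA sequencing in 12 mammary tumors of 9 mice. The members were chosen by their TPM levels in these tumors, in particular the separation of Cav1 from its neighbour Cav2 in tumor 8, so the levels, the ratio of both genes and the difference of tumor 8 are given as a description with no test. The values are TPM, a transcript abundance scaled to gene length and to the same total in every tumor, so genes can be compared within a tumor. Of the 16802 genes with a mean TPM of at least 1 over the mice, 2 of the 3 caveolins were part, and Cav3 was below that level.

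All tumors arose in untreated MADM-mutant mice on a mixed background, and there was no normal gland and no second condition. MADM (mosaic analysis with double markers) uses Cre recombination between a pair of modified chromosomes, the TG11ML and GT11ML lines. In an otherwise heterozygous animal it makes rare cells that lose the remaining wild-type copy of Brca1 and of p53. The mutations came from the Brca1 flox and p53 KO alleles, and MMTV-Cre, which acts mainly in mammary epithelium, drove recombination. Pieces of whole tumor were homogenized, so host stroma, vessels and blood cells were included, and the age of the individual mice was not in the labels. Tumors 3 and 4 came from 1 mouse, tumors 10, 11 and 12 from another, and the 7 other tumors from 1 mouse each. Tumors of a mouse were averaged first, TPM values on the linear scale and log2(TPM + 1) values on that scale, and means are over 9 mice.

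Tumors 2 and 9 stood apart. In tumor 2 the median of 6 epithelial junction genes was 0.122 TPM and that of 5 B lymphocyte genes was 502 TPM, so the defining epithelial markers of a mammary tumor were nearly absent. The B lymphocyte median was 18.3 TPM in tumor 9 and at most 1.20 TPM in the 10 other tumors, and tumor 9 kept an epithelial median of 167 TPM. Both tumors were set apart because they were known to differ in Met and its neighbours, a stretch that holds Cav1 and Cav2. The split was thus not independent of the caveolin levels. Summaries are given over all 9 mice and over the 7 mice of the 10 other tumors.

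Caveolins are small integral membrane proteins that insert into the inner leaflet and, together with cytoplasmic cavin proteins, shape caveolae, flask-like pits of the plasma membrane. Caveolin 1 is the scaffold in most cell types, caveolin 2 joins it in mixed oligomers and depends on it to leave the Golgi, and caveolin 3 takes the place of caveolin 1 in striated muscle. Caveolae are abundant in endothelial cells, adipocytes, fibroblasts and smooth muscle, and in the mammary gland caveolin 1 is also well known in myoepithelial cells.

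On the GRCm38 build Cav2 (ENSMUSG00000000058) lay at chr6:17281185-17289115 and Cav1 (ENSMUSG00000007655) at chr6:17306335-17341452, both on the plus strand. The end of Cav2 and the start of Cav1 were 17.2 kb apart, and their starts 25.1 kb. Cav3 (ENSMUSG00000062694), at chr6:112459505-112472872 on the same strand, was 95.2 Mb away. Gm15581, an antisense gene of the minus strand, spans both Cav2 and Cav1. It had at most 0.985 TPM in any tumor, and whether the counting used strand is not stated.

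The promoters of the neighbouring pair are shown because Cav1 has a start of its own, and because Cav2 and Cav1 differed in tumor 8 although they lie next to each other. RefSeq (GRCm38.p6) gives 1 start for Cav2 and 2 starts for Cav1, 1305 bases apart. Each run below is the 250 bases before a start, 5′ to 3′ on the plus strand. Capitals mark a GC box (GGGCGG or, on the other strand, CCGCCC) or an E-box of the kind bound by Snail and ZEB repressors (CAGGTG or CACCTG).
Cav2, chr6:17280935-17281184: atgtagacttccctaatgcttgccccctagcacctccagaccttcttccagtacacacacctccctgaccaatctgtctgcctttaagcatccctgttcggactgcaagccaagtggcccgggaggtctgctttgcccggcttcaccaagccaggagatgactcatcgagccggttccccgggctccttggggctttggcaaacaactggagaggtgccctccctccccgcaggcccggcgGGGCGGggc
Cav1, first start, chr6:17306085-17306334: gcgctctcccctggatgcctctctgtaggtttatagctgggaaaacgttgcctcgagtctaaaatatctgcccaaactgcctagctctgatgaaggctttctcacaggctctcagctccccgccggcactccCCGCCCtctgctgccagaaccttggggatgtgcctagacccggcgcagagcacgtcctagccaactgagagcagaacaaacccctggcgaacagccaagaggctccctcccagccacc
Cav1, second start, chr6:17307390-17307639: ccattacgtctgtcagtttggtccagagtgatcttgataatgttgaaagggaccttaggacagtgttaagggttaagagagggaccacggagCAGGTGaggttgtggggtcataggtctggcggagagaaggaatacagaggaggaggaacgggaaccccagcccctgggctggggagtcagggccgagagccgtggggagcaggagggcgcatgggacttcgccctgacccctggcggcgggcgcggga
A GC box stood in the windows of Cav2 and of the first Cav1 start, and such a box was found in 32.7% of 32851 RefSeq promoters of the same length. The window of the second Cav1 start held no GC box and 1 E-box, a motif in 17.2% of promoters. The CG dinucleotide occurred 10 times in the Cav2 window, 10 times at the first Cav1 start and 12 times at the second, and the median over promoters was 6. The window of Cav3 had 4 CG dinucleotides and neither motif. A match of letters is a description of the window, and the gene-level TPM does not separate the 2 Cav1 starts.

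Cav2 was among the most abundant transcripts of 10 tumors. Its level was 3249 TPM in tumor 1, 2180 in tumor 3, 1690 in tumor 4, 1122 in tumor 5, 3062 in tumor 6, 3190 in tumor 7 and 2797 in tumor 8. In tumors 10, 11 and 12 of a single mouse it was 1967, 1934 and 1962 TPM, and in tumors 9 and 2 it was 39.4 and 2.41 TPM. In the 10 tumors Cav2 ranked 20th to 95th of all genes and its highest level was 2.90 times its lowest, while it ranked 4339th in tumor 9 and 12614th in tumor 2. The mean was 1928 ± 1290 TPM (SD, n = 9 mice).

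Cav1 varied more among those 10 tumors. Its level was 1009 TPM in tumor 1, 523 in tumor 3, 1259 in tumor 4, 276 in tumor 5, 2066 in tumor 6, 776 in tumor 7 and 10683 in tumor 8. In tumors 10, 11 and 12 it was 468, 480 and 571 TPM, and in tumors 9 and 2 it was 16.5 and 8.25 TPM. In tumor 8 Cav1 was the most abundant of all genes and took 1.07% of the TPM, ahead of Eef1a1 (9186 TPM, translation elongation factor) and mt-Co1 (8433 TPM, cytochrome oxidase). Its rank was 41 in tumor 6 and between 93 and 514 in the 8 other tumors of the 10. The highest Cav1 level was 38.7 times the lowest in the 10 tumors and 7.48 times without tumor 8. The mean was 1804 ± 3389 TPM (SD, n = 9 mice).

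Cav3 was near the limit of the table, with 0.847 TPM in tumor 3, 0.711 in tumor 4 and 0.133 in tumor 6, and it was listed at 0 in the 9 other tumors. The mean was 0.101 ± 0.258 TPM (SD, n = 9 mice). Of the 47593 genes, 17230 were listed at 0 in every tumor.

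**Figure D1:**
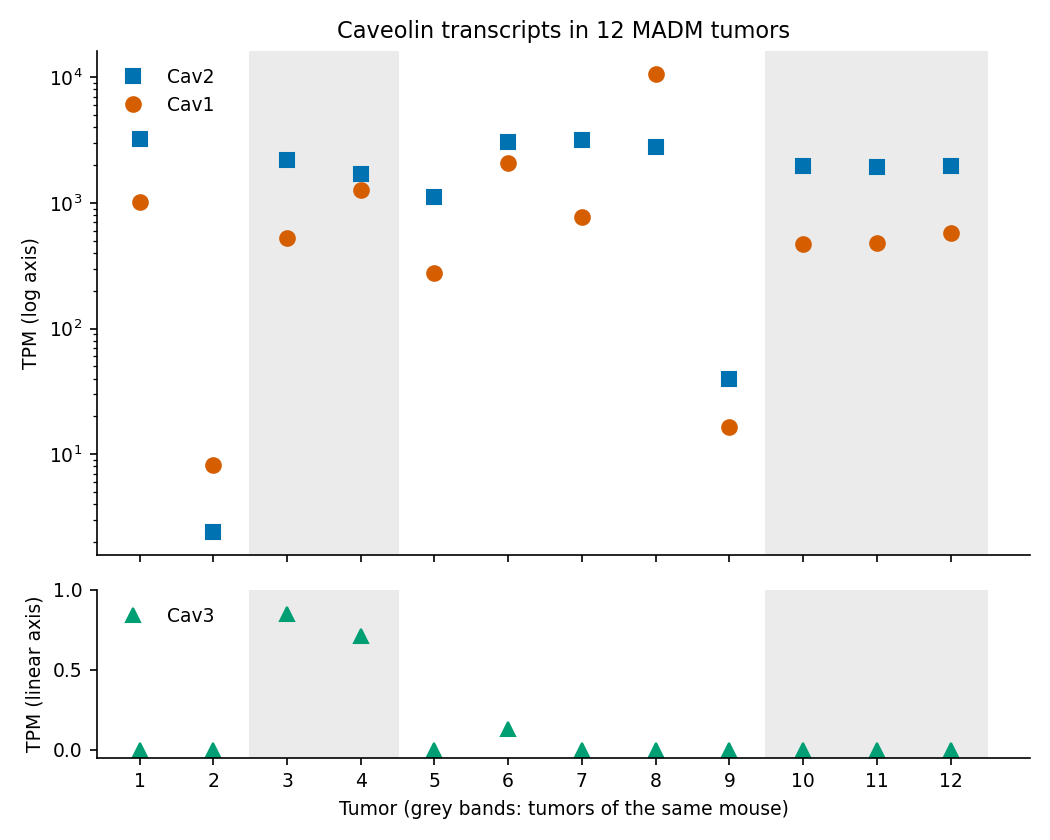
TPM in each of the 12 tumors of Cav1 and Cav2 (upper panel, log axis) and Cav3 (lower panel, linear axis), with each point 1 tumor, no error bar, and grey bands over tumors of the same mouse. Cav2 lies above Cav1 in 10 tumors, Cav1 lies above Cav2 in tumors 2 and 8, and Cav3 is near or at 0 throughout.

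The order of the tumors was not the same for both genes. From highest to lowest, Cav1 had the order 8, 6, 4, 1, 7, 12, 3, 11, 10, 5, 9 and 2, and Cav2 the order 1, 7, 6, 8, 3, 10, 12, 11, 4, 5, 9 and 2. The only measure of spread without a change of animal is between tumors of the same mouse. The largest such fold was 2.41 for Cav1, between tumors 3 and 4, and 1.29 for Cav2, in the same pair. Only 2 steps between adjacent tumors in the Cav1 order were larger than that, from tumor 8 to tumor 6 (5.17-fold) and from tumor 5 to tumor 9 (16.7-fold). For Cav2 they were the last 3 steps, from tumor 4 to tumor 5 (1.51-fold), from 5 to 9 (28.5-fold) and from 9 to 2 (16.3-fold). Other adjacent tumors, the leading 4 for Cav2 included, differed by no more than tumors of a single mouse.

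On the log2(TPM + 1) scale the SD over 9 mice was 3.52 for Cav2 and 3.20 for Cav1, against a median SD of 0.57 over the 16802 genes. Without tumors 2 and 9 it was 0.56 for Cav2 and 1.70 for Cav1, with a median of 0.41 over genes. Without tumor 8 as well, over 6 mice, it was 0.61 for Cav2 and 0.97 for Cav1. Most of the spread of Cav2 therefore lay between tumors 2 and 9 and the rest, and Cav1 had a further spread within the rest.

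The ratio of Cav2 to Cav1 put numbers on how far the neighbours moved apart. Cav2 was higher in 10 tumors, by 3.22-fold in tumor 1, 4.17 in tumor 3, 1.34 in tumor 4, 4.06 in tumor 5, 1.48 in tumor 6, 4.11 in tumor 7, 2.38 in tumor 9, and 4.20, 4.03 and 3.43 in tumors 10, 11 and 12. In tumor 2, where both genes were low, the ratio was 0.292. In tumor 8, where both were high, it was 0.262, that is, Cav1 was 3.82 times Cav2. The log2 difference of Cav2 minus Cav1 was 0.82 ± 1.5 (SD, n = 9 mice), 1.08 ± 1.43 over 7 mice and 1.58 ± 0.58 over the 6 mice without tumors 2, 8 and 9. The ratio lay between 4.03 and 4.20 in tumors 3, 5, 7, 10 and 11, which are from 4 mice and were picked after the values were seen, while Cav2 itself spanned 2.84-fold among them. Tumors 4 and 6, with the highest Cav1 after tumor 8, had the lowest ratios of the remaining tumors with high Cav2. Across the 7 mice Pearson's r of Cav1 with Cav2 was 0.60, and it was 0.83 over the 6 mice without tumor 8, both given as a description since the pair was chosen for this pattern.

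Both sets of tumors from a single mouse show the pair at close range. Between tumors 3 and 4 Cav1 differed 2.41-fold and Cav2 1.29-fold. Among tumors 10, 11 and 12 Cav1 differed 1.22-fold and Cav2 1.02-fold, although Cavin2, a coat gene, differed 14.0-fold in the same samples.

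The genes on either side were followed as a list of 4 neighbours: Tes, a focal adhesion protein, 241.2 kb before the Cav1 start, and Met, the hepatocyte growth factor receptor, Capza2, an actin-capping subunit, and St7, 157.5, 329.9 and 386.6 kb after it. Relative to its own median over the 10 tumors, tumor 8 had 1.20 for Tes, 1.35 for Cav2, 15.9 for Cav1, 0.595 for Met, 1.13 for Capza2 and 1.37 for St7. Met was at its lowest of the 10 tumors in tumor 8. The range over the 10 tumors was 0.541 to 1.57 for Cav2 and 0.410 to 15.9 for Cav1, and the neighbours stayed between 0.139, for St7, and 1.74, for Tes. Cav1 thus stood out from the genes on both sides of it in tumor 8, and to a lesser extent in tumors 6 (3.07) and 4 (1.87). In tumor 5 Cav1, Cav2, Tes and Capza2 each had their lowest level of the 10.

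**Figure D2:**
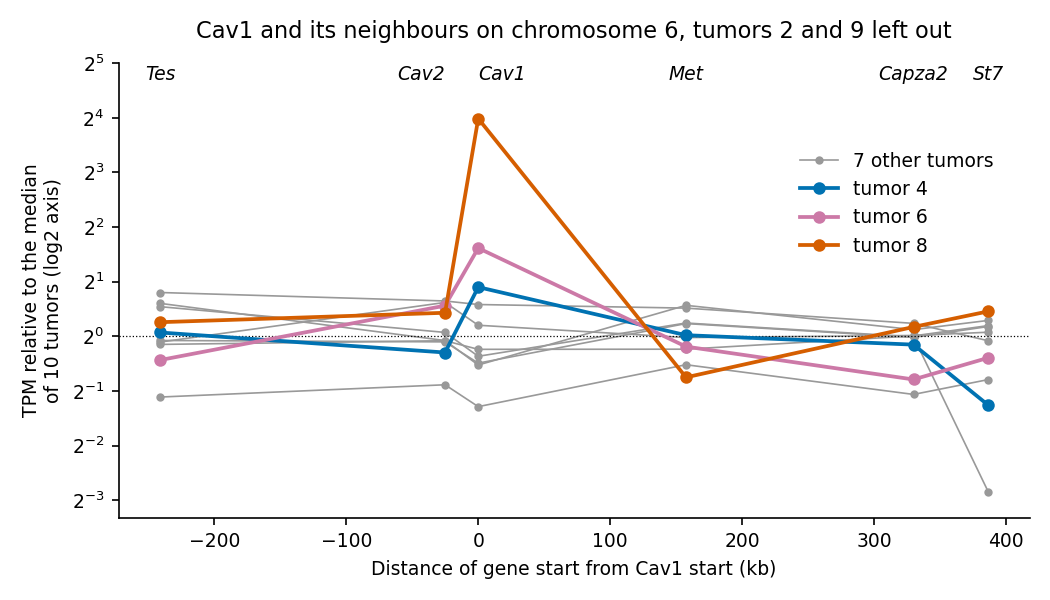
Level of Tes, Cav2, Cav1, Met, Capza2 and St7 relative to the gene's own median over the 10 tumors other than 2 and 9 (log axis), with genes placed in the order of their starts on the chromosome and each line 1 tumor. Tumor 8 reaches 15.9 at Cav1 and lies between 0.595 and 1.37 at the other genes.

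Tumor 8 was the tumor in which the mesenchymal state was examined. On the log2(TPM + 1) scale Cav1 in tumor 8 was 4.09 above the median of the 8 other mice, the 67th largest difference of 16802 genes, and Cav2 was 0.53 above it. The median difference of all genes was -0.03. At least 4-fold higher levels in tumor 8 were found for 552 of 16802 genes, or 3.29%, and at least 4-fold lower levels for 502 genes, or 2.99%. The balance turned with the setting, to 519 higher and 573 lower against the 6 other mice without tumors 2 and 9 and to 848 higher and 939 lower with a pseudocount of 0.1. In linear terms Cav1 was 20.4 times its median over the 11 other tumors and 18.7 times that over the 9 others of the 10 with high Cav2. There is 1 tumor of this kind and no replicate of it, so none of these differences has an error.

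Of the 8 mesenchymal genes, 5 were at least 4-fold higher in tumor 8. They were Vim (3049 TPM, an intermediate filament), Fn1 (1211 TPM, fibronectin), and the transcription factors Zeb1 (29.3 TPM), Zeb2 (55.6 TPM) and Twist1 (16.3 TPM). Against the 6 other mice without tumors 2 and 9 only Vim, Zeb1 and Zeb2 passed, 3 of the 8, and the log2 differences of Fn1 and Twist1 were 1.96 and 1.15. Snai1 (83.6 TPM) and Snai2 (7.31 TPM) were 1.79 and 1.53 above the other mice on the log2 scale, short of 4-fold. Cdh2, which encodes N-cadherin, was at 0.29 TPM with a difference of -1.24. That difference became -2.39, past 4-fold lower, with a pseudocount of 0.1, and -0.59 against the 6 other mice without tumors 2 and 9. In 6 of the 8 the highest level of all tumors was in tumor 8, as it was in 2014 of the 16802 genes, or 12%, but Twist1 was higher in tumors 5, 11 and 12. All 6 epithelial junction genes were at least 4-fold lower, Cdh1 (E-cadherin) at 3.77 TPM and Epcam (an epithelial adhesion molecule) at 2.03 TPM among them. Their median was 2.05 TPM in tumor 8 and 236 to 357 TPM in the 9 others of the 10.

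Outside tumor 8 the mesenchymal genes had no single order, and no correlation of Cav1 with this list was tested. Vim was high in tumors 4, 1 and 7 (917, 856 and 761 TPM) and lowest in tumors 9 and 2 (182 and 92.7 TPM), but it was 422 TPM in tumor 6 and 589 TPM in tumor 3. Snai1 was highest in tumors 1 and 6 (41.2 and 33.2 TPM) and lowest in tumors 2 and 9 (3.31 and 0.874 TPM), but its 26.02 TPM in tumor 5 were above tumors 4 and 7 (24.4 and 22.7 TPM). In tumors 9 and 2, the lowest in Cav1, Cdh2 had its highest level of all tumors (8.24 TPM in tumor 9), and Snai2 (4.71 TPM in tumor 9) and Zeb2 (32.2 TPM in tumor 2) their second highest. The list median also differed in order from Cav1. Tumor 6, with the second highest Cav1, had a mesenchymal median of 8.02 TPM and an epithelial median of 285 TPM. Tumor 5, with the lowest Cav1 of the 10, had a mesenchymal median of 18.3 TPM, near the highest outside tumor 8 (18.5 TPM in tumor 7). Zeb1 was second highest in tumor 2 (15.4 TPM), where Cav1 was 8.25 TPM and the epithelial median was below that of tumor 8.

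Markers of other cell types, some of which carry caveolae, were also high or low in tumor 8. None of the 7 endothelial genes was at least 4-fold higher in tumor 8, a limit that 3.29% of all genes passed. However, 6 of 7 had their highest level there (12% of all genes did). The list median was 29.9 TPM against 2.57 to 19.9 TPM in the others. Of 6 fibroblast genes 3 were at least 4-fold higher, namely Dcn (1732 TPM), Lum (106 TPM) and Pdgfra (111 TPM), and Col3a1 joined them with a pseudocount of 0.1 (log2 difference 2.01, from 2.00). The list median of 333 TPM was second to 442 TPM in tumor 4. Of 5 macrophage genes 1, Mrc1 (85.4 TPM), was at least 4-fold higher, and all 5 were highest in tumor 8 (12% of all genes were), with a median of 218 TPM against 8.11 to 125 TPM. The pericyte and smooth muscle median was the lowest of all tumors at 6.92 TPM (8.08 to 34.9 TPM elsewhere) and the adipocyte median was 0.252 TPM (0 to 11.6 TPM elsewhere), with no gene of either list past 4-fold at a pseudocount of 1. With 0.1, Cidec, a lipid droplet gene listed at 0 in tumor 8, was past it (log2 difference -2.28). The part of these cells in the Cav1 level was not tested, and in bulk tissue fewer cells of a type and less RNA per cell cannot be told apart.

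**Figure D3:**
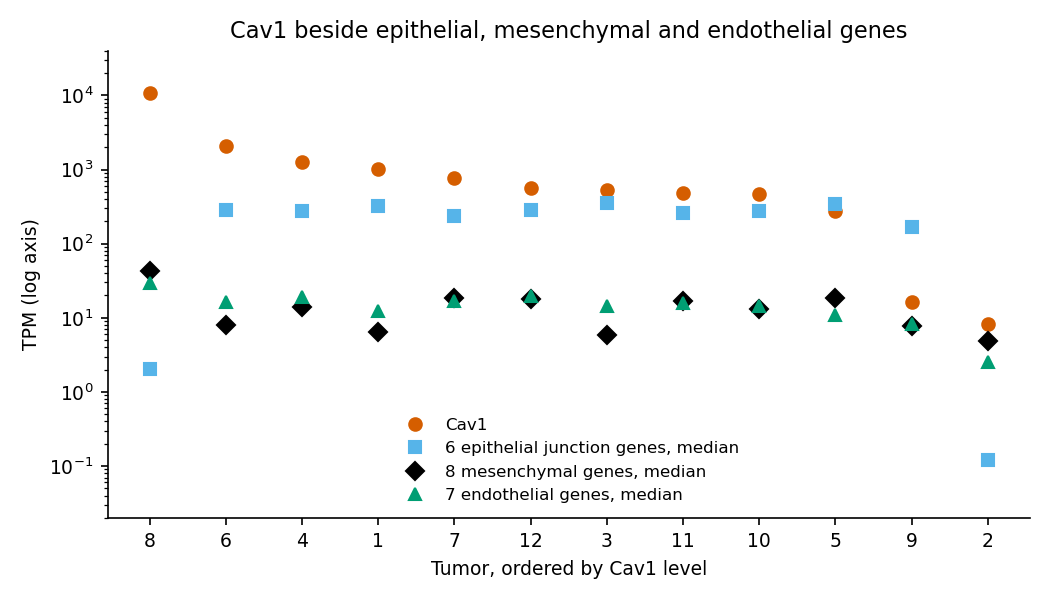
TPM on a log axis of Cav1 and the median TPM of the epithelial junction, mesenchymal and endothelial lists, with the 12 tumors ordered from the highest Cav1 to the lowest. Tumor 8 has the highest Cav1, mesenchymal and endothelial values and an epithelial median of 2.05 TPM.

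In the 10 tumors the partners of caveolin 1 in the coat were less abundant than Cav1, and the distance was widest in tumor 8. Cavin1, which is needed to form caveolae and is listed under its older symbol Ptrf, had 63.3, 4.03, 14.4, 61.8, 42.2, 34.0, 31.1, 81.9, 8.58, 14.9, 14.1 and 45.5 TPM in tumors 1 to 12. It was highest in tumor 8 and lowest in tumor 2. The Cav1 level was 130 times that of Cavin1 in tumor 8, 60.7 times in tumor 6 and 36.3 times in tumor 3, and between 6.55 and 34.1 times in the 7 others of the 10. It was 2.05 and 1.93 times in tumors 2 and 9. Tumors 3 and 4 of the same mouse differed 4.29-fold in Cavin1.

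None of the 6 coat genes above the level filter was at least 4-fold higher in tumor 8. Only 3.29% of all genes passed that limit, so finding none among 6 does not set the list apart. Cavin3, a cavin linked to protein kinase C, was also highest there (92.6 TPM), barely above tumor 1 (89.1 TPM), and its log2 difference was 1.60 against 1.39 for Cavin1. Ehd2, an ATPase at the caveolar neck, had 60.3 TPM in tumor 8 and 61.1 TPM in tumor 10, with a difference of 0.93. Cavin2, which bends the membrane, ran from 2.47 TPM in tumor 10 to 34.6 TPM in tumor 12 within the 10 tumors, and was 23.6 TPM in tumor 8. The membrane-bending F-BAR proteins Pacsin2 and Pacsin3 ranged from 40.5 to 99.95 TPM and from 5.34 to 166 TPM, and Pacsin3 was 0.97 lower in tumor 8 on the log2 scale. Cavin4, the muscle cavin, never passed 2.13 TPM. Flot1 and Flot2, flotillins of membrane domains without caveolin, had 89.4 and 85.2 TPM in tumor 8, inside their ranges of 16.3 to 133 TPM and 13 to 106 TPM.

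**Figure D4:**
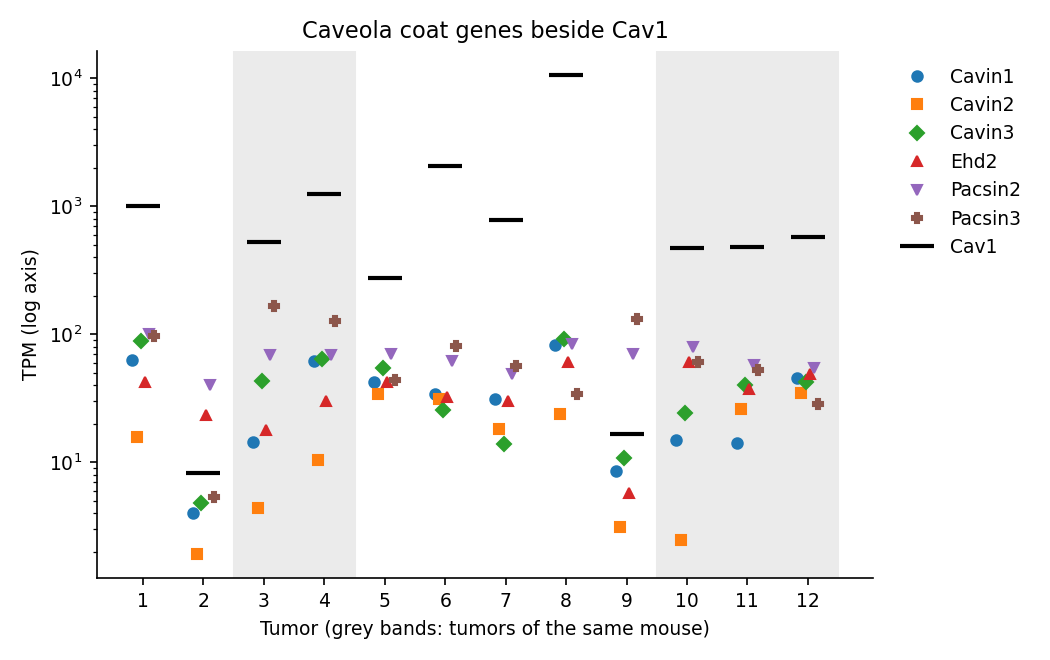
TPM on a log axis of Cav1, Cavin1, Cavin2, Cavin3, Ehd2, Pacsin2 and Pacsin3 in each tumor, 1 point per tumor, with Cavin4 left out because it stayed at or below 2.13 TPM. The distance between Cav1 and Cavin1 is widest in tumor 8, at 130-fold.

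Whether Cav1 or Cav2 followed the coat or the host cells known for caveolae across mice was tested with 8 correlations over 7 mice, each with an exact two-sided permutation of the pairings and Benjamini-Hochberg adjustment over the 8. Tumors 2 and 9 were left out since they sit apart in Met and its neighbours and form a separate cluster for both genes. The tested set thus depends on the tested levels, and the p-values over 7 mice do not allow for that choice. No Pearson correlation passed 0.05 after adjustment over the 7 mice. Over all 9 mice 4 of the 8 passed, those of Cav1 and of Cav2 with the coat and the endothelial genes (r from 0.90 to 0.94), and Cav2 with the adipocyte genes passed without the mouse of tumors 3 and 4 or that of tumor 5. The coefficient for Cav1 with the endothelial median was 0.86 (exact permutation p = 0.028, adjusted 0.11, n = 7 mice), with a Spearman rho of 0.43 (exact p = 0.35, adjusted 0.76). It was -0.12 without the 2 mice farthest from the median of the list, those of tumors 5 and 8, so the relation rests on them. Without tumor 8 alone, whose Cav1 level was part of how the genes were chosen, r was 0.50. For Cav1 with the coat genes r was 0.43 (exact p = 0.36, adjusted 0.50, rho = 0.21, exact p = 0.66) and -0.73 without 2 mice. For Cav1 with the fibroblast genes r was 0.39 (exact p = 0.37, adjusted 0.50, rho = 0.25, exact p = 0.59) and -0.32 without 2 mice, and with the adipocyte genes r was -0.47 (exact p = 0.29, adjusted 0.50, rho = -0.36, exact p = 0.43) and -0.25 without 2 mice.

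Cav2 gave r = 0.16 with the coat genes (exact p = 0.80, adjusted 0.80, rho = 0.25, exact p = 0.59) and -0.83 without 2 mice. It gave 0.41 with the endothelial genes (exact p = 0.35, adjusted 0.50, rho = 0.14, exact p = 0.78) and -0.43 without 2 mice, and -0.29 with the fibroblast genes (exact p = 0.51, adjusted 0.59, rho = -0.50, exact p = 0.27) and -0.34 without 2 mice. With the adipocyte genes, which include adiponectin and perilipin, r was -0.82 (exact p = 0.014, adjusted 0.11) and rho was -0.95 (exact p = 0.0040, adjusted 0.032, n = 7 mice), and r was -0.998 without the mice of tumors 3 and 4 and of tumor 5. This rank correlation passed when adjusted over the 8 Spearman tests and not when the 16 Pearson and Spearman tests were adjusted together (exact permutation, adjusted p = 0.063). It also missed the threshold over all 9 mice (rho = -0.47) and without any of the mice of tumors 1, 6, 7, 8 or 10 to 12. It is over a list whose median was at most 11.6 TPM and was 0 in tumors 1 and 7, the tumors with the highest Cav2, and also in tumor 2, the tumor with the lowest.

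**Figure D5:**
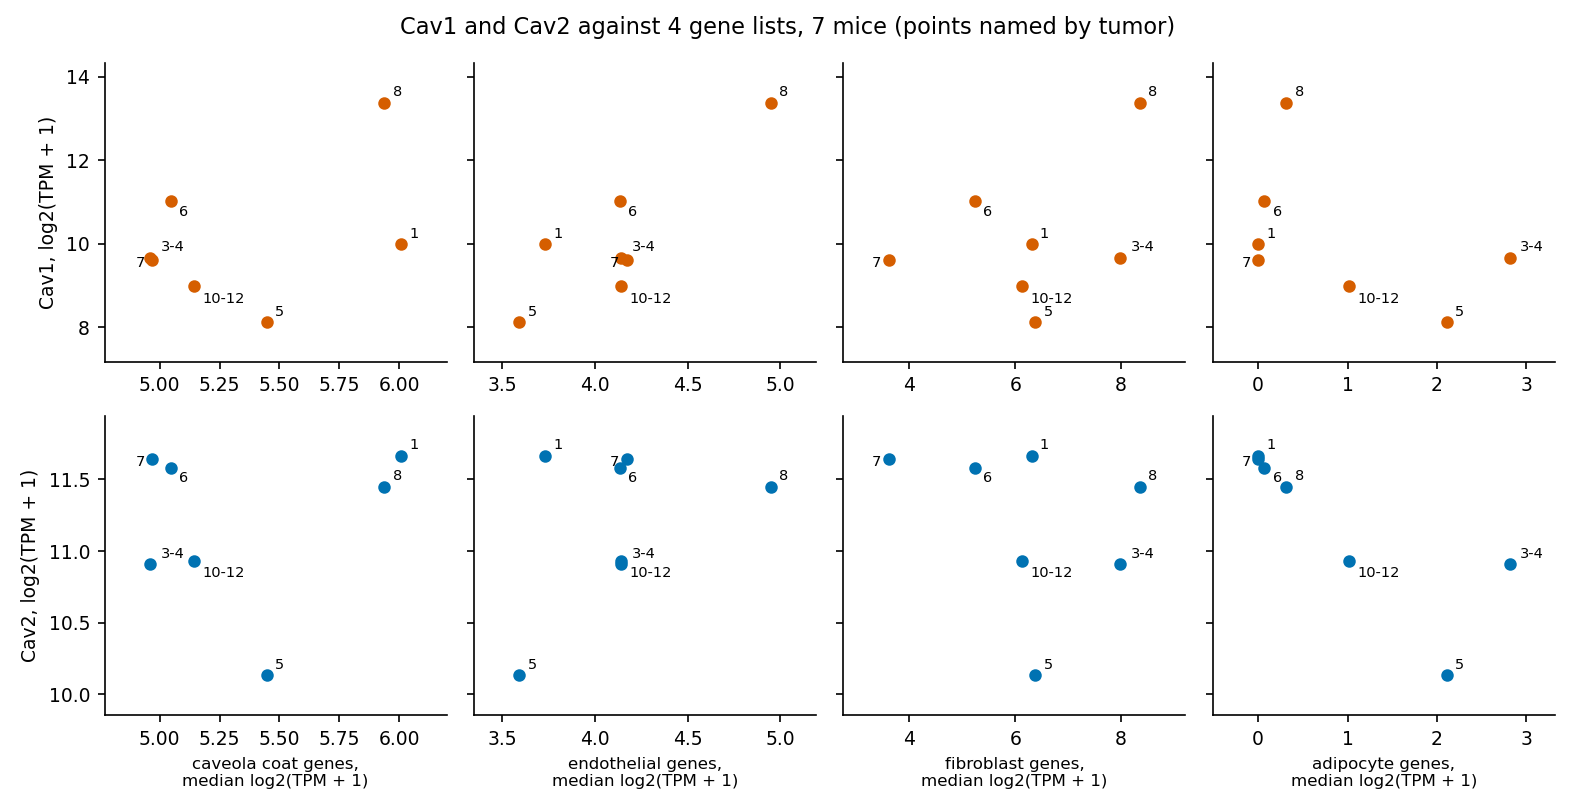
Median log2(TPM + 1) of the caveola coat, endothelial, fibroblast and adipocyte lists (x axes) against log2(TPM + 1) of Cav1 and Cav2 (y axes), 1 point per mouse for the 7 mice without tumors 2 and 9, labelled by tumor. Tumor 8 lies far above the other mice for Cav1, and Cav2 is lower where the adipocyte list is higher.

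The genes most like each caveolin were ranked by Pearson's r of log2(TPM + 1), as a description with no p. Over 9 mice Cav2 was closest to Crispld2 (0.996), Tes (0.99), Myof (0.99), Ctxn1 (0.99) and Acvr1 (0.99). Cav1 was closest to Spire2, Slc7a2, Apbb2, Dcbld2 and Acot9 (all 0.98), and Cav2 was 193rd of 16801 genes in this list. All the genes named for both over 9 mice were lowest in tumor 2, as Cav1 and Cav2 were, and the genes named for Cav1 were highest in tumor 8. As they were picked by r with Cav1 or Cav2, these shared extremes follow largely from the choice. Over the 7 mice the genes close to Cav1 included St3gal1 (0.99), Castor1, Lrp1 and Ppp3cc (all 0.97), with Cavin1 1875th (0.64), Cav2 2143rd (0.60), Tes 4033rd (0.38) and Met 12369th (-0.43) of 16767 genes. The named genes were again highest in tumor 8, which likewise follows largely from their choice by r with Cav1. Over the same mice Cav2 was closest to Gm12943 (0.97), Mir6386, BC004004 (both 0.96), Trappc5 and Gabre (both 0.95), with Cav1 1027th.

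Cav3 was highest in the 2 tumors with the highest skeletal muscle list median. The median of 8 skeletal muscle genes was 36.6 TPM in tumor 3 and 26.3 TPM in tumor 4, 2.71 TPM in tumor 2, 1.41 TPM in tumor 9 and at most 0.733 TPM in the others. Acta1, skeletal actin, had 168 and 115 TPM in tumors 3 and 4 and 19.0 TPM in tumor 6, the only other tumor with Cav3 above 0. The muscle creatine kinase gene Ckm had 25.3, 16.7 and 23.7 TPM in tumors 3, 4 and 2, and Cav3 was listed at 0 in tumor 2. Of the 8 genes, Myh1 (20.3 TPM) and Myh2 (2.55 TPM) were highest in tumor 9 and Tnni2 (92.2 TPM) in tumor 2, and Cav3 was listed at 0 in both tumors. The genes most like Cav3 over 9 mice were Usp17la (0.998), Aqp8, Klk10, Tnnc2 and Pvalb (all 0.98). Of these only Tnnc2 and Pvalb, fast-muscle troponin C and parvalbumin, are muscle genes. All 5 were highest in tumor 3, which follows largely from their choice by r with Cav3. Cav3 was above 0 only in tumors 3, 4 and 6, so these r values rest mainly on the mouse of tumors 3 and 4. Of 6 sarcolemma genes, which encode partners of caveolin 3 at the muscle membrane, 4 passed the level filter. Among these Sgcd was at least 4-fold higher in tumor 8 (10.1 TPM), where Cav3 was listed at 0, and 3.29% of all genes were. Sgcd was at most 1.32 TPM in the other tumors, so its mean of 1.29 TPM passed the filter only through tumor 8. Dmd, the dystrophin gene, had its lowest level of all tumors there (0.855 TPM), with a log2 difference of -1.99 that passed 4-fold under the alternatives with a pseudocount of 0.1, without tumors 2 and 9 or without mitochondrial genes.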

How the data were processed

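RNA sequencing was made by the authors from 12 whole mammary tumors (poly(A) RNA, stranded library kit, paired-end reads). Per the labels and the study's methods, adapters were trimmed with fastq-mcf, reads were aligned to GRCm38 with HISAT and quantified with StringTie 2.1.6. The deposited values are TPM, 1 per gene and tumor, with sums of 999770 to 999909 per tumor. TPM keeps no read number, so depth is not known and counting error has no interval. TPM is also relative, so an abundant gene lowers all others. How transcripts were summed per gene is not given in the sources used here.

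From these values log2(TPM + 1) was computed, and the tumors of a mouse were averaged (mean TPM values on the linear scale). Each tumor was matched to its column by the animal number and, in mice with several tumors, by the suffix after it. Nothing states that tumors of a mouse arose independently. The 8 correlations were tested by permuting the pairings exactly (two-sided) with Python 3.11.15, numpy 2.4.6 and scipy 1.17.1, a test first checked on simulated data. Levels, ratios and tumor 8 differences are descriptions, the last with a 4-fold limit and a mean TPM of at least 1. The members and 13 lists (76 genes, all matched) were chosen with earlier results of these data known. Named were the caveolins, list genes and, per caveolin, the 5 most alike genes by r, of which 1 is not reported here. Tes and Capza2 are named as list genes, and Eef1a1 and mt-Co1 after their values were seen. Positions are from GENCODE vM21 and promoters from RefSeq, both of GRCm38. The alternatives were another pseudocount (0.1), the mean of a list, filtered lists, tumors or all 9 mice as units, rescaling without mitochondrial genes, leaving out each mouse and, added after seeing the data, a joint adjustment of both coefficients.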

Additional observations from a re-analysis of the deposited data

Results flagged for a closer look

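Of 17 values checked over the 9 mice, levels of the caveolins and medians of the lists on the log2(TPM + 1) scale among them, 5 had a mouse far from the others relative to the whole range (Dixon's ratio above 0.493), a limit that chance passes in about 1 of 20 groups. The Cav3 level of the mouse of tumors 3 and 4 was 0.83, and the nearest mouse had 0.18. In that mouse the skeletal muscle median was also the highest, at 4.92 against 1.44. The mouse of tumor 2 had the highest B lymphocyte median (8.98, nearest 4.27), the lowest macrophage median (3.19, nearest 6.16) and the lowest flotillin median (3.96, nearest 5.70).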

How the results depend on the processing

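No paired analysis was possible because a second condition was not sampled. With all 9 mice, which joins separate clusters, r was 0.90 for Cav1 with the coat genes, 0.92 for Cav1 with the endothelial genes, 0.94 for Cav2 with the coat genes and 0.90 for Cav2 with the endothelial genes, all below 0.05 after adjustment, and r for Cav2 with the fibroblast genes turned to 0.55. Over these 9 mice Cav2 with the adipocyte genes gave r = -0.10 (exact permutation, adjusted p = 0.81) and rho = -0.47 (adjusted p = 0.27). Leaving out each mouse in turn gave -0.12 (without tumor 8) to 0.58 for Cav1 with the coat genes, -0.21 (without tumor 8) to 0.51 for Cav1 with the fibroblast genes, -0.11 (without tumor 1) to 0.40 for Cav2 with the coat genes, 0.50 (without tumor 8) to 0.92 for Cav1 with the endothelial genes, -0.066 (without tumor 5) to 0.66 for Cav2 with the endothelial genes and -0.9996 to -0.79 for Cav2 with the adipocyte genes. The last passed the threshold without tumors 3 and 4 (-0.9996) and without tumor 5 (-0.87), with an adjusted p of 0.022 by exact permutation in both. The rank correlation of this pair lay between -0.99 and -0.93 when each mouse was left out, with an adjusted p of 0.13 without tumor 1 or 7 and 0.18 without tumor 6, 8 or 10 to 12 by exact permutation. Adjusting Pearson and Spearman tests together, a choice made after seeing the data, left rho at -0.95 and raised its adjusted p to 0.063. With a pseudocount of 0.1 the mean Cav3 level was -2.84 instead of 0.11, since most values are 0, and the genes at least 4-fold higher and lower in tumor 8 were 848 and 939 instead of 552 and 502. Under the alternatives run, the tumor 8 difference stayed between 3.75 and 4.09 for Cav1 and between 0.19 and 0.53 for Cav2, and the mean of Cav2 minus Cav1 between 0.66 and 1.16 when at most 1 mouse was left out (1.58 without tumors 2, 8 and 9). The cause of these changes was not tested. What depth limits could not be given, since TPM holds no read number.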
